A study of Mus musculus with 9 samples.

Results

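The genes described here are 8 genes of retinoic acid metabolism, chosen by name from the 32285 genes of the count tables: Rdh10, Aldh1a1, Aldh1a2, Cyp26a1, Cyp26b1, Crabp2, Rbp4 and Stra6. All 8 were present in the tables. The rule lists them by name and takes no measured value, but they were chosen with earlier results of these data known. Their unique molecular identifiers (UMIs, each standing for 1 captured RNA molecule) were summed per mouse and cell type, and the sums were compared between somatic and germ cells and between genotypes.

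Whole testes of 9 mice (C57BL/6 in the labels, C57BL/6 J in the study's methods) at post-natal day 24 (PND24) were dissociated, and each mouse gave 1 droplet library in which the 3′ ends of RNAs were sequenced. The control group held 4 mice, littermates or non-littermates of the mutants by the labels and called wild type in the study's methods. The NELF-B cKO group held 2 mice with 1 floxed and 1 null allele of Nelfb, which encodes a subunit of the factor that holds paused RNA polymerase II, and the TDP-43 cKO group held 3 mice with 1 floxed and 1 null allele of Tardbp, which encodes the RNA- and DNA-binding protein TDP-43. Both mutants carried the Stra8-iCre transgene, which deletes the floxed allele in spermatogonia (SG) from PND4 onward, so that somatic cells keep the floxed allele and lack the other, and some germ cells escape deletion. Cell types were named from clusters by fixed markers. Germ cells were named as SG, as spermatocytes (SC) at preleptotene (pL) or zygotene (Z) and at pachytene (P) or diplotene (D), or as round spermatids (RS). Somatic cells were named as Sertoli, Leydig, myoid, endothelial, macrophage, other immune and interstitial cells. No cluster was named as leptotene (L). The joint sums called pL, L and Z SC therefore hold only cells named pL or Z, and whether L cells lie among them was not tested.

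Retinoic acid is made inside the testis from vitamin A and is needed for SG to differentiate and for germ cells to enter meiosis. Retinol circulates bound to RBP4, enters cells through receptors such as STRA6, is oxidised to retinal by RDH10, and is oxidised further to retinoic acid by the ALDH1A enzymes. CRABP2 carries retinoic acid to its nuclear receptors, and the cytochromes CYP26A1 and CYP26B1 break it down. CYP26B1 is known for keeping retinoic acid away from germ cells in the fetal testis.

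The 8 genes lie on 5 chromosomes of the mouse build GRCm38, and 3 of them share chromosome 19. The enzymes of synthesis are Rdh10 at chr1:16105774-16133734 (plus strand), Aldh1a1 at chr19:20492715-20643465 (plus strand) and Aldh1a2 at chr9:71215789-71296243 (plus strand). The enzymes of breakdown are Cyp26a1 at chr19:37697798-37701536 (plus strand) and Cyp26b1 at chr6:84571414-84593908 (minus strand). The binding proteins and the receptor are Crabp2 at chr3:87948666-87953376 (plus strand), Rbp4 at chr19:38116629-38125281 (minus strand) and Stra6 at chr9:58063788-58153996 (plus strand). All 8 are protein-coding in the annotation.

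Retinoic acid receptors bind pairs of 6-base elements, and a pair spaced by 5 bases, called DR5, is the best known form. The RefSeq promoters of GRCm38.p6, running from 250 bases before each start to 50 bases after it, were searched on both strands for 2 elements in the same direction with 5 bases between them. Each element could be AGGTCA or any of its variants, which were AGTTCA as well as GGGTCA together with GGTTCA. The search covered 6 of the 8 genes and found the pair in 1 of them, Cyp26a1, and in 32 of all 32851 promoters (0.0974%). With 2 bases between the elements, 88 promoters (0.268%) held a pair and no searched promoter of the 8 genes did. Among the other genes of the retinoid pathway, Rarb, which encodes a retinoic acid receptor, also held a DR5. Both are shown because they are the 2 retinoid genes whose start regions carry this element. The capitals mark the 6-base elements, each sequence is written 5′ to 3′ on the minus strand, and the Cyp26a1 pair ran from 32 to 16 bases and the Rarb pair from 53 to 37 bases before the RefSeq start.
Cyp26a1, chr19:37697770-37697798, minus strand: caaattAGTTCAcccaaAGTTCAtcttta
Rarb, chr14:16575507-16575535, minus strand: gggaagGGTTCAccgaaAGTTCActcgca
The match describes these letters and was not tested as a bound site.

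The libraries held 119203347 to 159407373 UMIs each. Barcodes were filtered at more than 1000 genes and less than 10% of UMIs from mitochondria, which left 45132. Of these, 24254 were in named clusters and kept, 9506 of them somatic and 14748 germ cells. The depth of the barcodes differed between libraries: the median ran from 1754 to 6369 UMIs per barcode in the control libraries, was 5165 and 17312.5 in the NELF-B cKO libraries, and ran from 14117 to 19254 in the TDP-43 cKO libraries. Thus the median per kept barcode was higher in 4 of the 5 mutant libraries than in every control library. These 4 libraries held fewer UMIs in total, 119203347 to 129190457, than every control library, at 133178807 to 159407373. Several cell types also came from different clusters in different libraries, and the cells of each cluster are given beside the genotype results, as counted before germ cells were left out. Of the barcodes past the filter, 260 occurred in 2 or more libraries. The floxed genes were checked first, before any germ cell was left out. In SG, Nelfb stood at 4.92 and 5.15 CPM (the UMIs of a gene in every 1000000 UMIs of the sum) in the NELF-B cKO mice against 65.1 to 78.3 CPM in the controls, and in somatic cells at 9.67 to 13.3 CPM against 23.4 to 31.3 CPM. Tardbp stood at 30.9 to 35.7 CPM in SG of the TDP-43 cKO mice against 67.0 to 90.5 CPM in the controls, but its 3′ UMIs lie outside the deleted exon and do not check the deletion. Germ cells of a mutant with a UMI of its own floxed gene were then left out, following the study. That removed 232 NELF-B cKO and 3104 TDP-43 cKO germ cells. TDP-43 cKO replicates 1, 2 and 3 kept 578, 1057 and 1100 germ cells, fewer together than were removed. NELF-B cKO replicates 1 and 2 kept 2395 and 859. For TDP-43 the removal is not shown to pick out cells that escaped deletion. Whether it left out cells by their depth was not tested.

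Levels are given in CPM, with the mean ± SD over control mice first. RNA set free from broken cells enters every droplet, so barcodes of 1 to 100 UMIs were summed for each library as a measure of this free RNA, and its level is given beside the low values. Free RNA is only a part of the UMIs of a cell, so a level below it need not come from it alone. Taking UMIs of markers of other cell types as free RNA, that part was estimated for control mice. It was 22.5 to 30.5% in SG and 14.3 to 29.4% in Sertoli cells. A level in sums of cells cannot tell fewer expressing cells from less RNA per cell.

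The enzymes of synthesis had their highest levels in different cell types of the interstitium and the tubule. Aldh1a1 was highest in Leydig cells, Aldh1a2 in P and D SC, and Rdh10 in pL SC. Leydig cells make testosterone between the tubules. In their sums, Aldh1a1, which oxidises retinal to retinoic acid, stood at 3660.3, 3579.9, 3918.4 and 3523.1 CPM in the 4 control mice (3670.4 ± 175 CPM, SD, n = 4). All 4 Leydig values lay far above every other cell type.

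Interstitial cells followed with 468 ± 61.2 CPM of Aldh1a1 (n = 4) and Sertoli cells, the nurse cells of the tubule, with 376 ± 54.5 CPM (n = 4). Their values, 400 to 527 and 327 to 433 CPM, overlapped. Myoid cells, which form the tubule wall, gave 102 ± 57.4 CPM from 10 to 31 cells per mouse. Immune cells and all germ cell types gave 20.5 CPM or less on average, from 20.5 ± 3.82 CPM in immune cells to 5.87 ± 0.840 CPM in D SC. These low levels all lay below the free RNA of the same libraries, where Aldh1a1 reached 67.8 to 74.9 CPM.

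Aldh1a2, the second enzyme that makes retinoic acid from retinal, had another pattern, with its highest levels in germ cells. P SC gave 122, 122, 131 and 133 CPM (127 ± 5.90 CPM, n = 4) and D SC gave 120, 122, 124 and 123 CPM (122 ± 1.67 CPM, n = 4). The 2 stages overlapped and stood above all other cell types. The joint sums of pL, L and Z SC followed at 81.7 ± 7.06 CPM, and within them pL SC at 109 ± 6.69 CPM lay above Z SC at 73.3 ± 4.55 CPM, with no overlap between the mice.

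Sertoli cells (49.1 ± 7.17 CPM), Leydig cells (47.1 ± 27.5 CPM) and RS (46.7 ± 3.12 CPM) came next for Aldh1a2 and overlapped each other. SG were at 31.7, 25.01, 33.6 and 37.1 CPM (31.8 ± 5.07 CPM, n = 4). SG were therefore the lowest of the germ cells, and their values lay below all values of RS. The free RNA held 67.1 to 81.0 CPM of Aldh1a2, above the SG, RS, Sertoli cell and most Leydig cell values and below the P and D SC values.

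Rdh10, which oxidises retinol to retinal in the first step, was highest in pL SC, at 36.2, 29.2, 41.7 and 35.2 CPM (35.6 ± 5.10 CPM, n = 4). All 4 values were above those of Z SC, 8.56 to 12.3 CPM, and of SG, 9.05 to 10.2 CPM. Later stages held less, with 5.75 ± 0.493 CPM in P SC and 1.58 ± 0.368 CPM in D SC, and stood at 10.6 ± 1.48 CPM in RS. Endothelial cells of 3 control mice gave 24.0 ± 10.6 CPM from 3 to 17 UMIs, Sertoli cells 14.7 ± 5.19 CPM and Leydig cells 11.3 ± 2.07 CPM, and these 3 ranges overlapped, the endothelial one reaching into that of pL SC. Free RNA held 4.26 to 8.28 CPM of Rdh10.

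**Figure D1:**
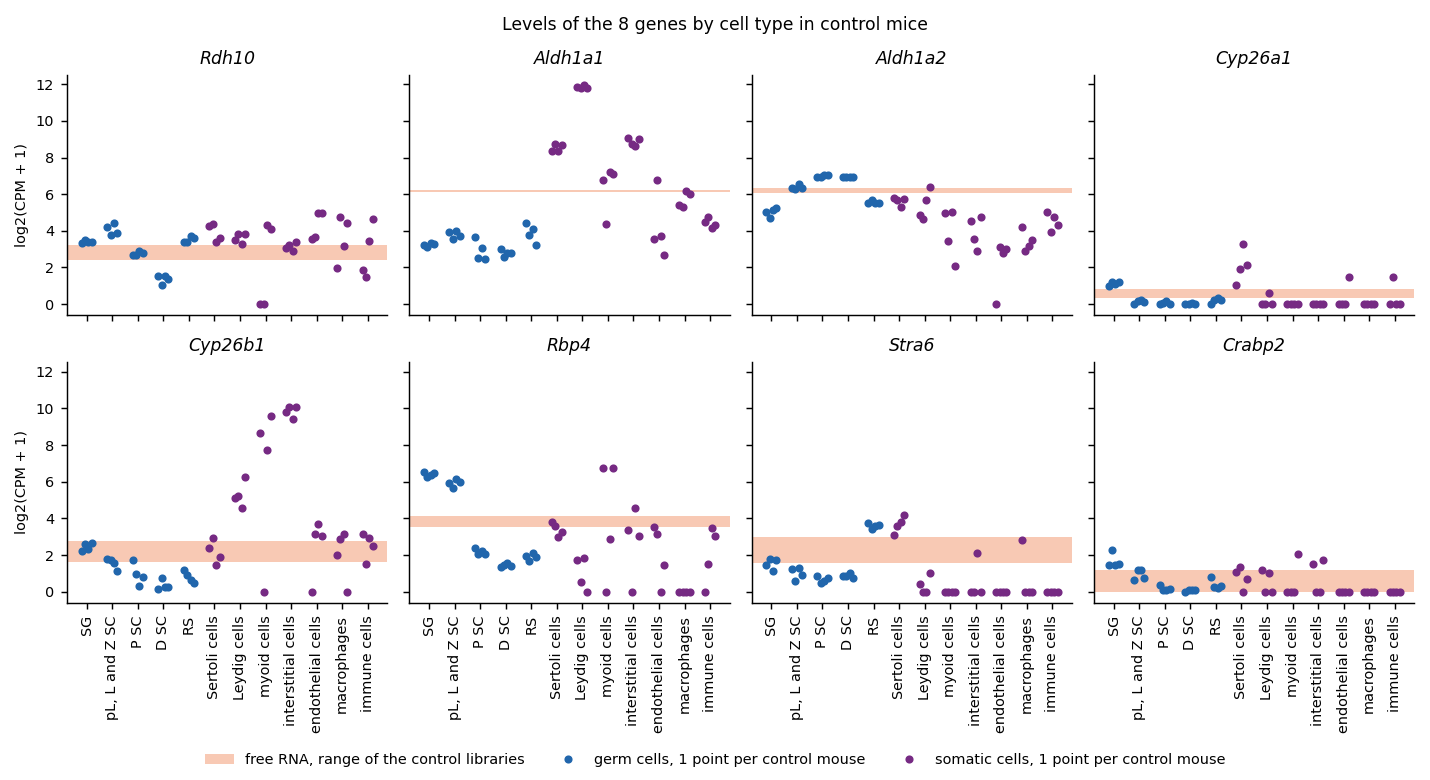
Levels of the 8 genes by cell type in control mice, as log2 of CPM plus 1, with 1 point per mouse (sums of fewer than 10 cells included), germ cells in blue, somatic cells in purple and the range of the free RNA as an orange band. Aldh1a1 peaks in Leydig cells (3523.1 to 3918.4 CPM), Aldh1a2 in P and D SC (120 to 133 CPM) and Cyp26b1 in interstitial cells (676 to 1095.9 CPM).

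The enzymes of breakdown were both near 0 in Z, P and D SC and in RS. Cyp26b1 was in the stroma and the tubule wall, and Cyp26a1 was seen in traces, with the most UMIs in Sertoli cells and SG. Cyp26b1 stood at 881, 1095.9, 676 and 1073.7 CPM in interstitial cells (932 ± 196 CPM, n = 4). Myoid cells gave 398, 0, 215 and 782 CPM from 10, 10, 22 and 31 cells. The myoid values thus spread from 0 to above the lowest interstitial value.

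Leydig cells gave 34.2, 35.7, 22.8 and 74.3 CPM of Cyp26b1 and came next in order. Endothelial, macrophage, immune and Sertoli cells and SG averaged 3.88 to 8.97 CPM. Along the germ line, pL SC held 5.74 ± 1.35 CPM, near the 4.55 ± 0.825 CPM of SG, and Z SC held 0.885 ± 0.678 CPM. Free RNA held 2.09 to 5.76 CPM. The SG values lay within that range and the Z SC values below it. The pL SC values, from 4 to 12 UMIs per mouse, were above the free RNA of their own library in every mouse.

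Cyp26a1 gave 1, 9, 15 and 11 UMIs in the Sertoli cells of the 4 control mice, or 1.07, 2.76, 8.79 and 3.32 CPM (3.99 ± 3.34 CPM). SG gave 7 to 16 UMIs per mouse, or 1.19 ± 0.173 CPM. The lowest Sertoli value lay within the SG values and the other 3 above them. Myoid cells, macrophages and interstitial cells held 0 UMIs of Cyp26a1 in the control mice, which allows pooled levels of up to 4.70, 6.50 and 1.49 CPM, the level of 3 UMIs in the pooled sum. The limit for interstitial cells is below the Sertoli cell mean, and those for the other two are not.

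Of the proteins that bind and take up retinoids, Rbp4 marked the early germ cells, Stra6 the Sertoli cells and RS, and Crabp2 was seen in traces, with the most UMIs in SG and early SC. Rbp4, which carries retinol in blood, stood at 91.9, 74.5, 81.6 and 87.7 CPM in SG (83.9 ± 7.59 CPM, n = 4). pL SC held 132, 99.1, 117 and 147 CPM (124 ± 20.6 CPM), all above the SG. Z SC held 41.4 ± 3.79 CPM, P SC 3.56 ± 0.470 CPM, D SC 1.71 ± 0.165 CPM and RS 2.75 ± 0.457 CPM, so the largest step as a fold lay between zygotene and pachytene.

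Outside the germ line, Rbp4 reached 107, 0, 6.31 and 105 CPM in myoid cells, from 7, 0, 1 and 33 UMIs. Sertoli cells held 9.85 ± 2.61 CPM, within or below the 10.6 to 16.6 CPM of the free RNA. Macrophages of the control mice held 0 UMIs of Rbp4, which allows up to 6.50 CPM.

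Stra6, the receptor that takes up retinol from RBP4, stood at 7.52, 11.04, 12.9 and 16.9 CPM in Sertoli cells (12.1 ± 3.92 CPM) and at 12.3, 9.65, 11.1 and 11.4 CPM in RS (11.1 ± 1.10 CPM). These 2 cell types overlapped. Among the other germ cells, SG followed with 1.92 ± 0.576 CPM, and the joint pL, L and Z SC, P SC and D SC were at 0.578 to 1.05 CPM on average. Macrophages gave 2 UMIs in control replicate 1 (5.94 CPM from 42 cells) and 0 in control replicate 3. Leydig cells held 2 UMIs over the 4 mice, and myoid, endothelial and immune cells held 0, which allows up to 4.70, 3.04 and 1.81 CPM. The free RNA held 1.92 to 7.04 CPM of Stra6, below every Sertoli cell and RS value.

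Crabp2 gave 13, 48, 21 and 18 UMIs in SG, or 1.78, 3.92, 1.74 and 1.85 CPM (2.33 ± 1.07 CPM, n = 4). The joint sums of pL, L and Z SC held 0.948 ± 0.391 CPM, below the SG in every mouse. Within them, pL SC held 1.25, 3.81, 1.52 and 2.10 CPM, from 1 to 6 UMIs per mouse, and overlapped the SG. Z SC held 0.351, 0.634, 1.19 and 0.357 CPM. In P SC the level was 0.125 ± 0.0963 CPM, from 1 to 3 UMIs per mouse. Free RNA held 0 to 1.28 CPM.

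**Figure D2:**
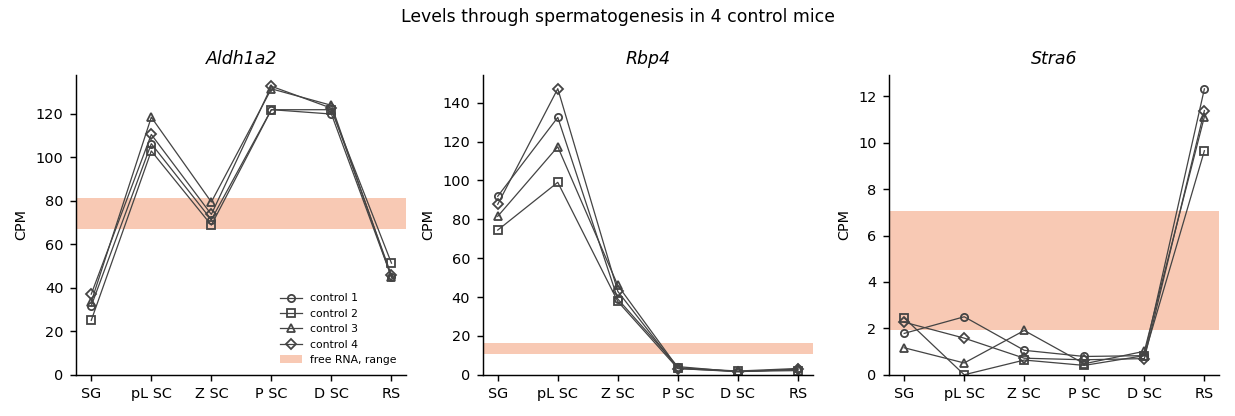
Levels of Aldh1a2, Rbp4 and Stra6 from SG through pL, Z, P and D SC to RS in control mice, in CPM with 1 line per mouse and the range of the free RNA as an orange band. Rbp4 peaks in pL SC (99.1 to 147 CPM), Aldh1a2 is highest in P and D SC (120 to 133 CPM) and Stra6 in RS (9.65 to 12.3 CPM), and only the RS values of Stra6 lie above its free RNA throughout.

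These differences were tested with edgeR's quasi-likelihood test and Benjamini-Hochberg adjustment over all genes of each fit, with the mouse as a block because the sums of a mouse share its library. Between somatic and germ cells of the control mice, 6 of the 7 members tested passed an adjusted p of 0.05, where 79.5% of all genes did. Aldh1a1 was higher in somatic cells by 7.53 ± 0.23 on the log2 scale (± SE, adjusted p = 4.32e-08), Cyp26b1 by 6.31 ± 0.20 (adjusted p = 5.12e-08), Stra6 by 1.21 ± 0.39 (adjusted p = 0.0187) and Rdh10 by 0.99 ± 0.22 (adjusted p = 0.00303). The germ cell level of Aldh1a1 lay below its free RNA, and its log2 fold change ran from 7.32 to 18.4 over 11 alternatives, all called. Lower in somatic cells were Aldh1a2 (-1.27 ± 0.13, adjusted p = 2.97e-05) and Rbp4 (-1.59 ± 0.23, adjusted p = 0.000274). Crabp2 missed the threshold at 0.40 ± 0.42 (adjusted p = 0.398). The germ cell sums pool all stages. Rdh10 stood at 1.08 to 1.86 CPM in D SC and at 29.2 to 41.7 CPM in pL SC, against 10.0 to 14.8 CPM in the somatic sums. The call of Stra6 did not hold without control replicate 2, 3 or 4 (adjusted p = 0.0745, 0.0556 and 0.0853). It was also lost with finer clusters (0.94, adjusted p = 0.0608) and with the free RNA subtracted (1.23, adjusted p = 0.0804). The somatic values of Stra6, 1.84 to 9.30 CPM, overlapped the germ cell values of 1.55 to 2.96 CPM.

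Sertoli cells and SG touch each other at the tubule wall. Here 5 of 7 members passed the test, against 59.2% of all genes. Sertoli cells held more Aldh1a1 (5.38 ± 0.29, adjusted p = 1.8e-21), Stra6 (2.59 ± 0.33, adjusted p = 1.29e-08), Cyp26a1 (1.46 ± 0.47, adjusted p = 0.00746) and Aldh1a2 (0.54 ± 0.18, adjusted p = 0.0112), and less Rbp4 (-3.19 ± 0.28, adjusted p = 1.38e-13). The Cyp26a1 call was lost without control replicate 3 (0.98, adjusted p = 0.177) and the Aldh1a2 call without control replicate 2 (0.45, adjusted p = 0.0605) or with the Sertoli cells of 1 cluster of high UMIs alone (0.34, adjusted p = 0.142). Both the Sertoli cell and the SG levels of Aldh1a2 were below that of the free RNA. In SG, Aldh1a1 was also below its free RNA, and Stra6 was within or below its own. Over 11 alternatives the log2 fold change ran from 5.31 to 14.0 for Aldh1a1, from 2.45 to 4.61 for Stra6 and from 0.34 to 2.13 for Aldh1a2.

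Between P SC and the joint pL, L and Z SC, 4 of 7 members passed, against 59.9% of all genes. Aldh1a2 was higher in P SC (0.94 ± 0.16, adjusted p = 2.56e-06). Rbp4 was lower in P SC (-3.78 ± 0.26, adjusted p = 1.76e-17), as were Rdh10 (-1.16 ± 0.25, adjusted p = 7.81e-05) and Aldh1a1 (-0.66 ± 0.27, adjusted p = 0.0365). The Aldh1a1 call, at levels below the free RNA, held in 4 of 11 alternatives. It was lost without control replicate 3 (-0.34, adjusted p = 0.455) or 4 (-0.35, adjusted p = 0.296) and without the block (-0.61, adjusted p = 0.0935). DESeq2 (-0.63, adjusted p = 0.0887), no filter on low counts (-0.50, adjusted p = 0.0592) and finer clusters (-0.44, adjusted p = 0.181) lost it too. So did a fit with the Sertoli cells of 1 cluster of high UMIs alone (-0.34, adjusted p = 0.273).

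Between RS and P SC, 4 of 7 members passed, against 74% of all genes. RS held more Stra6 (4.19 ± 0.35, adjusted p = 5.36e-14), Aldh1a1 (0.96 ± 0.27, adjusted p = 0.00143) and Rdh10 (0.79 ± 0.25, adjusted p = 0.00443), and less Aldh1a2 (-1.53 ± 0.17, adjusted p = 2.09e-11). The Rdh10 call was lost with finer clusters (0.03, adjusted p = 0.926). Aldh1a1 in both cell types and Stra6 in P SC lay below the free RNA. Over 11 alternatives, all called, the log2 fold change ran from 0.80 to 7.40 for Aldh1a1 and from 4.17 to 9.57 for Stra6.

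Among the somatic cells, Sertoli and Leydig cells differed in 5 of 7 members, against 47.1% of all genes. Sertoli cells held less Aldh1a1 (-3.51 ± 0.25, adjusted p = 1.55e-16) and Cyp26b1 (-3.52 ± 0.46, adjusted p = 1.04e-08), and more Rbp4 (2.31 ± 0.54, adjusted p = 0.000366). The Sertoli cell values of Rbp4, 7.03 to 12.9 CPM, lay within or below its free RNA of 10.6 to 16.6 CPM. Stra6 (adjusted p = 2.22e-09) and Cyp26a1 (adjusted p = 5.88e-05) were also called higher in Sertoli cells, with 121 against 2 UMIs and 36 against 1 UMI over the 4 mice, and no fold is given at such counts.

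Myoid and interstitial cells differed in 3 of 7 members, against 12.8% of all genes. Myoid cells held less Aldh1a1 (-2.38 ± 0.33, adjusted p = 1.96e-07) and Cyp26b1 (-1.68 ± 0.32, adjusted p = 9.48e-05), and more Rbp4 (2.58 ± 0.59, adjusted p = 0.00132). The Rbp4 call was lost without control replicate 4 (1.52, adjusted p = 0.466), the Cyp26b1 call by DESeq2 (-1.50, adjusted p = 0.083) and the Aldh1a1 call with the free RNA subtracted (-2.46, adjusted p = 0.057).

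Some genes outside the pathway had patterns most like those of the members over the 12 cell types, by Pearson's r of the mean levels in control mice among 16654 genes. The points come from the same 4 libraries, so r is a description. Acsbg1 (r = 0.97), Mgarp and Tst (both 0.96) were most like Aldh1a1 and highest in Leydig cells, and Ndufs4, Tbca and Hspa9 (all 0.94) were most like Aldh1a2. Adamtsl4 (0.98) and Inhba (0.96) were among those most like Cyp26b1, both highest in interstitial cells. For Rbp4 they were Tktl1, Clstn2 and Tro (all 0.93), for Rdh10 Exoc6b (0.92), Zdhhc20 (0.88) and 6430548M08Rik (0.87), and for Stra6 1600012H06Rik (0.92), Gm26555 and 4930595M18Rik (both 0.90).

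Of 50 other genes of the retinoid pathway, 35 could be tested in the control comparisons, leaving out those used as cell type markers. Somatic cells were higher for 18 and lower for 9 of them, where 79.5% of all genes were called. The largest differences were those of Adh1, an alcohol dehydrogenase (6.83, adjusted p = 2.16e-07), Aldh1a7, a relative of Aldh1a1 (6.79, adjusted p = 1.91e-07), and Tgm2, a transglutaminase gene induced by retinoic acid (6.63, adjusted p = 3.6e-07), all higher in somatic cells. The largest differences toward germ cells were those of Sall4, a transcription factor of SG (-2.42, adjusted p = 0.000112), Rdh11, a retinal reductase (-2.18, adjusted p = 1.04e-05), and Bco1, which cleaves carotenoids (-2.12, adjusted p = 0.00444). The share of Aldh1a1 reads that belong to Aldh1a7, a near copy, cannot be told from these tables.

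Sertoli cells against SG gave 16 higher and 11 lower of the 35, where 59.2% of all genes were called, led by Aldh1a7 (5.13), Fabp5, a fatty acid carrier that also binds retinoic acid (4.47), and Cyp2s1, a further cytochrome (4.40), and by Sall4 (-4.38), Rarg, a retinoic acid receptor (-3.85), and Kit, the receptor of differentiating SG (-3.83). P SC against pL, L and Z SC (59.9% of all genes called) gave 5 higher, among them Adh4 (3.65), Lrat, which esterifies retinol for storage (1.71), and Rdh11 (1.60), and 14 lower, led by Gm4969 (-5.27), a meiotic gene that responds to retinoic acid, Kit (-3.79) and Rarg (-2.93). RS against P SC (74% of all genes) gave 12 higher, led by Rec8, a meiotic cohesin (5.28), Adh7 (4.95) and Bco1 (4.82), and 8 lower, led by Rdh5 (-2.87), Bco2 (-2.12) and Rdh12 (-1.88). Each of these passed an adjusted p of 0.05, but the Rdh12 call was lost whichever control mouse was left out (-1.55 to -1.36, adjusted p = 0.0596 to 0.118) and by DESeq2 (-1.01, adjusted p = 0.284).

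Sertoli against Leydig cells (47.1% of all genes called) gave 7 higher, led by Cyp2s1 (4.52), Adh4 (2.94) and Rec8 (1.94), and 13 lower, led by Adh1 (-5.41), Dhrs3, which reduces retinal to retinol (-4.14), and Kit (-4.11). Myoid against interstitial cells (12.8% of all genes) gave 3 higher, with Dhrs3 (1.52), Fabp5 (0.95) and Rarb, for which no fold is given at its few UMIs, and 4 lower, led by Rara, a retinoic acid receptor (-2.28), Aldh1a3, which makes retinoic acid (-1.86), and Nrip1, a receptor corepressor (-1.53). In this comparison the Aldh1a3 call held in 2 of 11 alternatives. It was lost without control replicate 1, 2 or 3 (-1.56 to -1.11, adjusted p = 0.129 to 0.411), by DESeq2 (-1.77, adjusted p = 0.051) and with the free RNA subtracted (-1.77, adjusted p = 0.46). In the same cells the call was lost for others too, for Rarb without replicate 2 or 3 (adjusted p = 0.236 and 0.199), for Dhrs3 and Fabp5 without replicate 3 (1.49 and 0.64, adjusted p = 0.0916 and 0.348) and for Nrip1 without replicate 2 (-1.04, adjusted p = 0.0559).

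Between genotypes the members were tested in each cell type in which at least 2 mice per genotype had 10 or more cells. NELF-B cKO mice could be compared with controls in 9 cell types and 40 tests, of which 3 passed. TDP-43 cKO mice could be compared in 11 cell types and 49 tests, of which 2 passed. All calls were in SC, and the levels of the main sources, Leydig cells for Aldh1a1 and interstitial cells for Cyp26b1, passed in neither mutant. NELF-B cKO and TDP-43 cKO mice share the 4 controls, so their results are not independent.

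**Figure D3:**
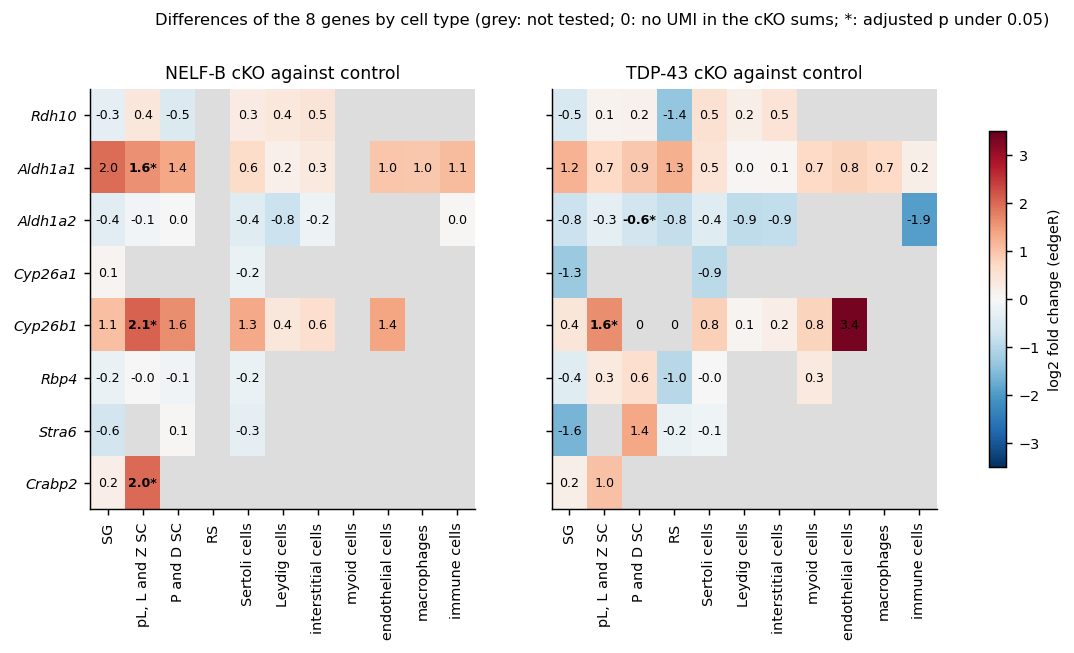
Log2 fold changes of the 8 genes (rows) by cell type (columns) in NELF-B cKO and TDP-43 cKO against control mice, from edgeR, with red for higher and blue for lower in the mutant, grey where a gene was not tested and a plain 0 where the mutant sums held no UMI. Stars mark an adjusted p under 0.05, held by Aldh1a1, Cyp26b1 and Crabp2 in pL, L and Z SC of NELF-B cKO mice and by Cyp26b1 in pL, L and Z SC and Aldh1a2 in P and D SC of TDP-43 cKO mice.

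In the joint sums of pL, L and Z SC, 3 of 6 members tested rose in NELF-B cKO mice, where 15% of all genes were called, and 1 of 6 rose in TDP-43 cKO mice, where 38% were. Cyp26b1 stood at 2.47, 2.28, 1.95 and 1.16 CPM in control mice, at 9.92 and 6.71 CPM in NELF-B cKO mice and at 10.9, 3.45 and 4.05 CPM in TDP-43 cKO mice. Every mutant value lay above every control value. The log2 fold change was 2.06 ± 0.50 in NELF-B cKO (adjusted p = 0.0246) and 1.62 ± 0.47 in TDP-43 cKO mice (adjusted p = 0.0222). The NELF-B cKO call was lost without control replicate 4 (1.83, adjusted p = 0.0765) or NELF-B cKO replicate 1 (1.72, adjusted p = 0.0727), and with control germ cells left out by the same rule (1.69, adjusted p = 0.11). The TDP-43 cKO call was lost without control replicate 4 (1.43, adjusted p = 0.0581) or TDP-43 cKO replicate 1 (0.93, adjusted p = 0.112), with that removal in controls (2.52, adjusted p = 0.0625) and with the free RNA subtracted (1.59, adjusted p = 0.0624).

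Aldh1a1 stood at 14.5, 10.8, 14.8 and 12.1 CPM in these sums of control mice, at 20.9 and 61.4 CPM in NELF-B cKO mice and at 31.6, 15.4 and 18.3 CPM in TDP-43 cKO mice. The mutant values were again all above the controls, and NELF-B cKO replicate 2 stood apart. The fold change passed in NELF-B cKO (1.60 ± 0.37, adjusted p = 0.0215) and not in TDP-43 cKO mice (0.70 ± 0.35, adjusted p = 0.136). The call was lost without NELF-B cKO replicate 2 (0.65, adjusted p = 0.287), without control replicate 2 or 4 (adjusted p = 0.0547 and 0.0683), with the removal in controls too (1.28, adjusted p = 0.0677) and with the free RNA subtracted (1.55, adjusted p = 0.456).

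Crabp2 was counted at 2, 10, 8 and 7 UMIs in control mice (0.548, 1.27, 1.30 and 0.679 CPM), at 22 and 23 UMIs in NELF-B cKO mice (4.55 and 3.43 CPM) and at 7, 12 and 11 UMIs in TDP-43 cKO mice (1.78, 2.43 and 1.94 CPM). The groups did not overlap. It rose in NELF-B cKO mice by 1.97 ± 0.45 (adjusted p = 0.0207) and was at 1.04 ± 0.44 in TDP-43 cKO mice (adjusted p = 0.0858). The call was lost without control replicate 4 (1.79, adjusted p = 0.069) or NELF-B cKO replicate 1 (1.73, adjusted p = 0.0572), and with the removal in controls too (1.53, adjusted p = 0.0804).

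Several other measures moved with these 3 genes in the same sums. The share of pL SC among the pL, L and Z SC was 32.9%, 23.5%, 36.4% and 24.8% in control mice, 70.8% and 60.8% in NELF-B cKO mice and 86.1%, 57.9% and 59.5% in TDP-43 cKO mice. The pL SC came from cluster 15 in control mice and NELF-B cKO replicate 1, with 0 to 13 and 2 of their cells in cluster 10, and mainly from cluster 10 in NELF-B cKO replicate 2 (251 cells, 1 in cluster 15) and the TDP-43 cKO mice (378, 465 and 508 cells, with 0, 28 and 16 in cluster 15). Z SC were split between clusters 9 and 14 in the same way. In pL SC alone, none of the 3 passed: Cyp26b1 was at 1.01 (adjusted p = 0.291), Aldh1a1 at 1.40 (adjusted p = 0.171) and Crabp2 at 1.38 (adjusted p = 0.233) in NELF-B cKO mice, and Cyp26b1 at 0.46 (adjusted p = 0.517) in TDP-43 cKO mice. In Z SC alone, Aldh1a1 passed in NELF-B cKO mice (1.77, adjusted p = 0.00989). The shares of all genes called belong to the joint sums. Here and below, results in pL SC or Z SC alone stand without such a share, and are no result about the genes as a list.

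The free RNA of these libraries was higher in the mutants for Aldh1a1 and Cyp26b1. It held 181 and 940 CPM of Aldh1a1 in NELF-B cKO and 792, 213 and 227 CPM in TDP-43 cKO libraries, against 67.8 to 74.9 CPM in controls, and 18.0 and 46.8 CPM and 81.7, 8.81 and 16.7 CPM of Cyp26b1, against 2.09 to 5.76 CPM. The summed level of the 6 Leydig markers in the pL, L and Z SC was 13.6 to 26.0 CPM in control, 57.3 to 87.7 CPM in NELF-B cKO and 21.9 to 47.1 CPM in TDP-43 cKO mice, with at most 1 marker at 0. That of the 3 interstitial markers was 3.04 to 6.85, 11.4 to 22.1 and 5.27 to 26.5 CPM, with no marker at 0. That of the 5 SG markers was 54.3 to 88.4, 186 to 327 and 254 to 313 CPM. The part of stage, cluster, free RNA and other cells in the 3 differences was not tested.

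**Figure D4:**
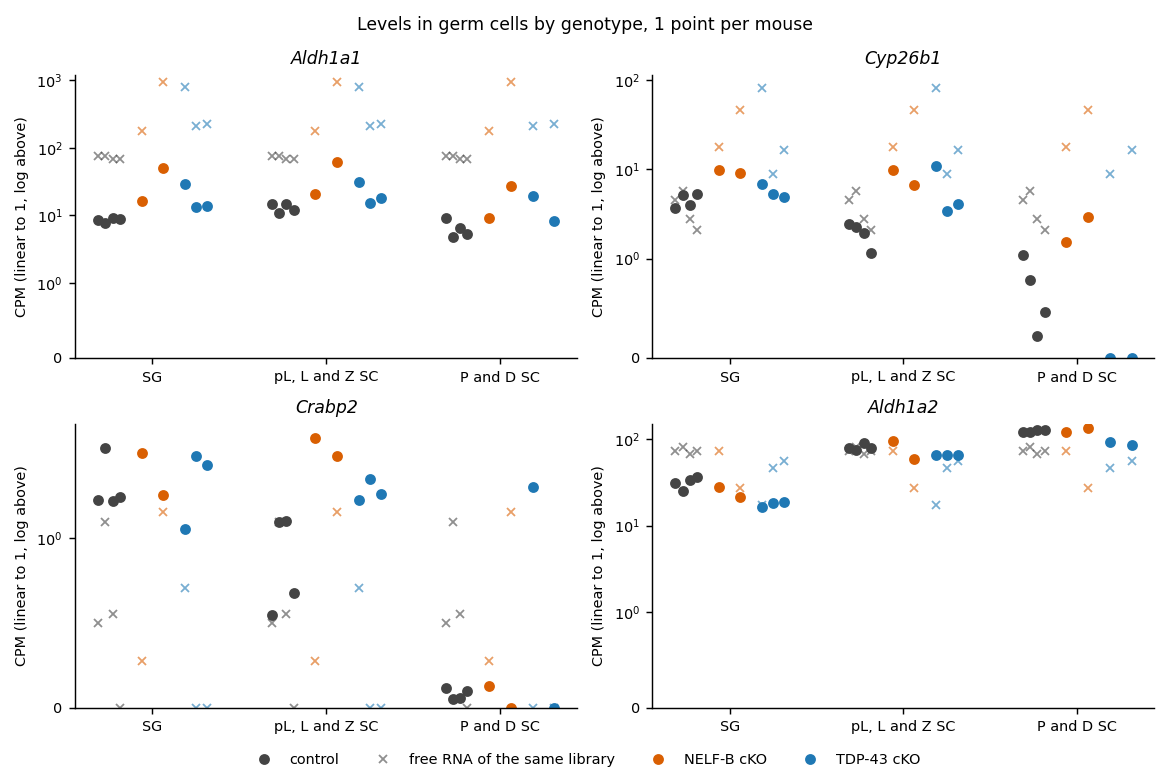
Levels of Aldh1a1, Cyp26b1, Crabp2 and Aldh1a2 in germ cells by genotype, in CPM on an axis that is linear to 1 and logarithmic above, with 1 dot per mouse and a cross for the free RNA of its library. In pL, L and Z SC every mutant value of Aldh1a1, Cyp26b1 and Crabp2 lies above the highest control value, and Aldh1a2 in P and D SC is lower in the 2 TDP-43 cKO mice that could be tested (94.6 and 85.4 CPM).

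In P and D SC, no member of 6 passed in NELF-B cKO mice (0.0553% of all genes were called, 2 members had an unadjusted p under 0.05, and DESeq2 called none) and 1 of 6 passed in TDP-43 cKO mice (17.7% of all genes). Aldh1a2 stood at 121, 122, 127 and 127 CPM in control mice, at 122 and 135 CPM in NELF-B cKO mice and at 94.6 and 85.4 CPM in TDP-43 cKO replicates 2 and 3. The TDP-43 cKO values rest on 44 and 42 UMIs from 28 and 20 cells. Replicate 1, with 2 such cells, was not in the fit. The values of replicates 2 and 3 lay below all other mice. Their whole sums held 464882 and 491611 UMIs after the removal of germ cells. Those of control mice held 17329739 to 56194474 UMIs from 345 to 779 cells.

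Aldh1a2 fell by 0.63 ± 0.14 on the log2 scale against control (adjusted p = 0.0121) and by 0.64 ± 0.15 against NELF-B cKO mice (adjusted p = 0.021). Against NELF-B cKO mice it was the only one of 6 members to pass in P and D SC, where 14% of all genes did. Without TDP-43 cKO replicate 3 both calls were lost (-0.60, adjusted p = 0.112, and -0.61, adjusted p = 0.134). With no germ cell left out, the change against control was 0.0175 (adjusted p = 1), and with the removal in controls too it was -0.18 (adjusted p = 0.97). Against NELF-B cKO mice it was -0.0433 (adjusted p = 0.977) with no germ cell left out. The median over all genes was -0.22 against control and -0.20 against NELF-B cKO mice. The summed level of the 8 RS markers in these sums was 152 to 309 CPM in control, 141 to 278 CPM in NELF-B cKO and 936 to 1438 CPM in TDP-43 cKO mice, and RS held less Aldh1a2 than P SC. The part of this in the difference was not tested.

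In SG, no member of 8 passed in either mutant, and 0.00545% of all genes were called in each. At an unadjusted p under 0.05 there were 2 members in NELF-B cKO and 5 in TDP-43 cKO mice, and DESeq2 called 2 and 3. Of the 36 other pathway genes tested in SG, 9 and 11 had an unadjusted p under 0.05. In every cell type, counts at an unadjusted p or by DESeq2 stand without the share of all genes at that threshold. They are no result about the members. Aldh1a2 was at 16.4, 18.3 and 18.8 CPM in TDP-43 cKO mice, 27.9 and 21.6 CPM in NELF-B cKO mice and 25.01 to 37.1 CPM in control mice. The TDP-43 cKO values lay below all others, with a log2 difference of -0.75 ± 0.16 (adjusted p = 0.102). The SG came from different clusters. Cluster 3 held 332 to 499 SG per control mouse and 975 in NELF-B cKO replicate 1, but 1 in NELF-B cKO replicate 2. Its TDP-43 cKO cells numbered 0, 35 and 11 per mouse. Cluster 7 held 0 to 37 per control mouse, 7 and 245 in NELF-B cKO mice and 287, 542 and 631 in TDP-43 cKO mice. The part of this split in the SG values was not tested. Levels of the members in mutant SG, here and in the next paragraph, are those after the removal of germ cells. Their levels without it are not given. The free RNA of Aldh1a2 moved alike, at 17.3, 46.7 and 56.5 CPM in TDP-43 cKO libraries against 67.1 to 81.0 CPM in controls.

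Rbp4 in SG was at 52.2, 60.8 and 64.2 CPM in TDP-43 cKO mice against 74.5 to 91.9 CPM in control mice, without overlap (-0.43 ± 0.11, adjusted p = 0.102), while its free RNA level was higher, at 26.4 to 39.2 against 10.6 to 16.6 CPM. Rdh10 was at 5.20 to 7.55 CPM against 9.05 to 10.2 CPM, also without overlap (-0.53 ± 0.20, adjusted p = 0.144). Stra6, at 3 to 7 UMIs per TDP-43 cKO mouse, was at -1.63 ± 0.46 (adjusted p = 0.105). Aldh1a1 was at 16.3 and 49.7 CPM in NELF-B cKO mice against 7.76 to 9.22 CPM in control mice (1.95 ± 0.44, adjusted p = 0.28), far below the free RNA of the same libraries. Cyp26b1 was at 9.77 and 9.06 CPM in SG of NELF-B cKO mice against 3.70 to 5.36 CPM in control mice, without overlap (1.05 ± 0.25, adjusted p = 0.288), and its free RNA was higher as given above. DESeq2 called Aldh1a1 and Cyp26b1 in NELF-B cKO and Aldh1a1, Aldh1a2 and Rbp4 in TDP-43 cKO mice.

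In pL SC alone, Aldh1a2 stood at 65.4, 53.0 and 53.9 CPM in TDP-43 cKO and at 106 and 57.0 CPM in NELF-B cKO mice, against 103 to 118 CPM in control mice. The TDP-43 cKO values were all below the controls (-0.90, adjusted p = 0.0662). Rdh10, whose control level was highest in pL SC, stood at 23.3, 17.4 and 20.4 CPM in TDP-43 cKO mice against 29.2 to 41.7 CPM in control mice (-0.77, adjusted p = 0.0696). Neither passed the test, and the share of all genes called in pL SC alone is not given. The mutant values in pL SC alone are also those after the removal of germ cells, and values without it are not given. In RS, none of 6 members passed in TDP-43 cKO mice, where 5.38% of all genes did. Of these members 3 had an unadjusted p under 0.05 and DESeq2 called 1, Aldh1a1. RS could not be compared in NELF-B cKO mice, since replicate 1 gave 299 RS and replicate 2 gave 7.

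In the somatic cells no member passed in either mutant by edgeR. In Leydig cells, Aldh1a1 stood at 3641 and 4310 CPM in NELF-B cKO and at 3754, 3677 and 3560 CPM in TDP-43 cKO mice, against 3523.1 to 3918.4 CPM in control mice. The groups overlapped, with differences of 0.17 ± 0.11 (adjusted p = 0.601) and 0.04 ± 0.10 (adjusted p = 0.917). The share of all genes called in Leydig cells was 0% in NELF-B cKO and 2.45% in TDP-43 cKO mice, and none of 4 members had an unadjusted p under 0.05 in either or was called by DESeq2.

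Interstitial Cyp26b1 stood at 1279 and 1484 CPM in NELF-B cKO and at 1329, 884 and 918 CPM in TDP-43 cKO mice, against 676 to 1095.9 CPM in control mice. The NELF-B cKO values were above the controls and the TDP-43 cKO values overlapped them. The differences were 0.58 ± 0.21 (adjusted p = 0.942) and 0.23 ± 0.19 (adjusted p = 0.599). No gene was called in interstitial cells of either mutant (0% in both). Of 4 members, 2 had an unadjusted p under 0.05 in NELF-B cKO mice and none in TDP-43 cKO mice, and DESeq2 called none.

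In Sertoli cells, none of 7 members passed (0% of all genes called in NELF-B cKO and 12.1% in TDP-43 cKO mice), with 2 and 1 at an unadjusted p under 0.05 and none by DESeq2. Aldh1a1 stood at 455 and 688 CPM in NELF-B cKO and at 586, 448 and 536 CPM in TDP-43 cKO mice, against 327 to 433 CPM in control mice. All mutant values were above the controls (0.63 ± 0.20, adjusted p = 0.423, and 0.49 ± 0.18, adjusted p = 0.111). Stra6 was at 12.3 and 7.81 CPM and at 11.1, 10.2 and 12.0 CPM, within the control values. Sertoli cells came from 2 clusters, and the one of high UMIs, with a median of 33997 UMIs against 2071 in the other, held 25 of 201, 60 of 362, 54 of 147 and 90 of 289 cells in control mice, 62 of 270 and 78 of 260 in NELF-B cKO mice, and 404 of 579, 162 of 311 and 228 of 337 in TDP-43 cKO mice.

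In endothelial cells, Cyp26b1 stood at 134, 48.5 and 77.5 CPM in TDP-43 cKO mice against 7.82, 12.0 and 7.10 CPM in the 3 control mice with enough cells. The values did not overlap, and the difference of 3.36 ± 0.56 had an unadjusted p of 3.57e-05 and an adjusted p of 0.118, where 0% of all genes were called. DESeq2 called it. The NELF-B cKO mice were at 34.0 and 0 CPM (0% of all genes called there), and none of 2 members passed. The 3 interstitial markers summed to 520 to 1100 CPM in these TDP-43 cKO sums and to 126 to 235 CPM in the controls, with none at 0, and their part in the difference was not tested.

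In other immune cells, Aldh1a2 was at 6.57, 6.43 and 3.96 CPM in TDP-43 cKO mice against 14.6 to 31.7 CPM in control mice (-1.93 ± 0.54, adjusted p = 0.0576), where 5.09% of all genes were called, and DESeq2 called it. Its free RNA level was also lower in these libraries. In NELF-B cKO mice 0% of all genes and none of 2 members were called there, with 1 member at an unadjusted p under 0.05. In macrophages, the 1 member tested, Aldh1a1, passed in neither mutant (0% of all genes in NELF-B cKO and 0.0879% in TDP-43 cKO mice, with an unadjusted p of 0.0363 and 0.103), nor did any of 3 members in myoid cells of TDP-43 cKO mice (0.904% of all genes, none at an unadjusted p under 0.05). DESeq2 called none of them.

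The 2 mutants were also tested against each other in 9 cell types and 40 tests. Aldh1a2 in P and D SC, given above, was the 1 call. No member passed in SG (0.0436% of all genes called), in pL, L and Z SC (0.409%), in endothelial cells (0.0458%), in macrophages (0.0147%), or in Sertoli, Leydig, immune and interstitial cells (0% in each). At an unadjusted p under 0.05 these held 1 member in SG, 1 in pL, L and Z SC, 1 in endothelial cells and 2 in immune cells, and DESeq2 called none of them. Aldh1a1 in pL, L and Z SC was at -0.90 ± 0.40 (adjusted p = 0.264), Cyp26b1 at -0.44 ± 0.53 (adjusted p = 0.696) and Crabp2 at -0.94 ± 0.48 (adjusted p = 0.322). The calls of Aldh1a1 and Crabp2 in NELF-B cKO mice were therefore not shown to differ from the values in TDP-43 cKO mice.

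Among the other pathway genes, 8 of 212 tests passed in NELF-B cKO mice and 22 of 255 in TDP-43 cKO mice. All 8 NELF-B cKO calls were higher in pL, L and Z SC, among 29 genes tested there, where 15% of all genes were called: Crabp1, Kit, Stra8, Rxra, Gm4969, Fabp5, Rara and Adh5, from 2.42 ± 0.32 for Crabp1 to 0.88 ± 0.20 for Adh5. Crabp1 and Stra8 are also markers by which SG and pL clusters were named. With each of the 9 mice left out in turn, the calls of Crabp1 and Kit held in all 9 fits. The Adh5 call was lost without control replicate 1 or 4 or NELF-B cKO replicate 2 (0.49 to 0.87, adjusted p = 0.0516 to 0.168), and the Stra8 and Gm4969 calls without control replicate 1, 2 or 4 or NELF-B cKO replicate 1 (0.65 to 1.45 and 0.54 to 1.20, adjusted p up to 0.255 and 0.18). The Rxra and Fabp5 calls held in 2 of the 9 fits, those without NELF-B cKO replicate 1 or TDP-43 cKO replicate 1, and were at 0.95 and 0.38 (adjusted p = 0.268 and 0.502) without NELF-B cKO replicate 2. In pL SC alone Crabp1 was at 1.41 (adjusted p = 0.105), Adh5 at 0.52 (adjusted p = 0.205) and Gm4969 at 0.07 (adjusted p = 0.907). In Z SC alone they were at 1.00 (adjusted p = 0.423), 0.38 (adjusted p = 0.405) and 0.34 (adjusted p = 0.58), and Stra8 was at -0.75 (adjusted p = 0.391). The free RNA was above all control libraries in both NELF-B cKO libraries for Crabp1, Kit, Adh5, Stra8 and Rxra and in replicate 2 for Fabp5 (224 CPM against 23.4 to 39.9 CPM) and Rara, and its part was not tested. The median over the 29 genes was 0.43, and that over all genes 0.01.

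Kit, the stem cell factor receptor of SG and pL SC, stood at 7.95, 15.3, 16.6 and 10.9 CPM in control mice in the pL, L and Z SC, at 46.3 and 31.2 CPM in NELF-B cKO mice and at 49.4, 33.9 and 37.7 CPM in TDP-43 cKO mice. All mutant values were above the controls, and it rose in both (1.55 ± 0.29, adjusted p = 0.0102, and 1.61 ± 0.26, adjusted p = 0.0018). Rara, the retinoic acid receptor gene, stood at 5.48, 5.96, 7.30 and 6.88 CPM, at 11.8 and 14.2 CPM and at 17.3, 12.98 and 15.7 CPM. It too rose in both (0.96 ± 0.23, adjusted p = 0.024, and 1.21 ± 0.21, adjusted p = 0.0023). The NELF-B cKO call of Rara was lost without control replicate 1, 2 or 4 (adjusted p = 0.06, 0.0633 and 0.0667) or NELF-B cKO replicate 2 (0.82, adjusted p = 0.106). With the removal in controls too, Kit (0.54, adjusted p = 0.19) and Rara (0.25, adjusted p = 0.657) did not pass in TDP-43 cKO mice, and neither gene passed in pL SC or Z SC alone in either mutant.

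In TDP-43 cKO mice 12 of the 29 genes rose and 4 fell in pL, L and Z SC, where 38% of all genes were called in either direction. Besides Crabp1, Fabp5, Kit, Rara, Stra8, Adh5 and Gm4969, those that rose included Scarb1, a receptor that takes up carotenoids, Nrip1, Rarg and Dhrs3. The Dhrs3 call rests on TDP-43 cKO replicate 1, at 7.13 CPM against 0.203 and 0.352 CPM in the other two and 0.194 to 0.325 CPM in control mice. Those that fell were Lrat, Bco1, Rdh11 and Rdh14. The Rdh14 call held in 2 of 9 fits with 1 mouse left out, those without control replicate 3 or NELF-B cKO replicate 1 (-0.47 to -0.31 and adjusted p = 0.0741 to 0.189 in the others). The Gm4969 call was lost without control replicate 1, 2 or 4 or TDP-43 cKO replicate 1 (0.64 to 0.81, adjusted p = 0.0685 to 0.132), the Rarg call without control replicate 1 or 4 or TDP-43 cKO replicate 1 or 2 (0.83 to 0.97, adjusted p = 0.0507 to 0.0715), and the Stra8 call without control replicate 1 or 4 or TDP-43 cKO replicate 1 (0.85 to 1.14, adjusted p = 0.0583 to 0.103). The Nrip1 call was lost without TDP-43 cKO replicate 2 (0.83, adjusted p = 0.0554) and the Dhrs3 call without control replicate 1 (3.18, adjusted p = 0.0844). The direction of some calls also turned. Stra8 and Gm4969 were at -0.26 and -0.52 in pL SC alone and at -0.0579 and -0.28 with the removal in controls too, and Scarb1 was at -0.31, Rdh14 at 0.32 and Rdh11 at 0.0677 in Z SC alone. In control mice Lrat and Rdh11 were higher in P SC than in pL, L and Z SC, and Bco1 was higher in RS than in P SC.

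Lrat stood at 6.30, 3.42, 3.89 and 6.40 CPM in control mice and at 0.509, 1.01 and 0.529 CPM in TDP-43 cKO mice (-2.86 ± 0.45, adjusted p = 0.00158), from 2 to 5 UMIs per mutant mouse. The groups did not overlap. Bco1 was counted at 7 to 18 UMIs per control mouse and at 1 UMI in each TDP-43 cKO mouse (adjusted p = 0.00225). For all 11 genes named as rising, the free RNA was higher in each TDP-43 cKO library than in every control library, as for Fabp5 (178, 92.8 and 102 CPM against 23.4 to 39.9 CPM), Crabp1 (64.8, 70.5 and 84.1 CPM against 15.8 to 25.9 CPM) and Kit (33.8, 26.4 and 32.1 CPM against 5.74 to 11.2 CPM). The cell levels of Kit, Stra8 and Gm4969 lay above the free RNA of the same TDP-43 cKO libraries, and those of Fabp5, Crabp1, Adh5, Scarb1, Nrip1 and Rara lay below it. The free RNA was lower in the TDP-43 cKO libraries for Lrat (0.704, 4.74 and 2.57 CPM against 11.7 to 20.1 CPM in control), Bco1 (1.06, 2.03 and 1.93 CPM against 2.56 to 8.87 CPM) and Rdh11 (8.10, 56.9 and 54.6 CPM against 134 to 161 CPM). As with the members, the share of pL SC was higher in both mutants, and the part of stage, cluster and free RNA in these differences was not tested.

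In Sertoli cells of TDP-43 cKO mice, Tgm2 rose and Rdh11 fell among the pathway genes, of which 28 were tested, each with an adjusted p of 0.0347, where 12.1% of all genes were called. Tgm2 stood at 6.44, 6.74, 8.79 and 6.04 CPM in control mice and at 37.7, 30.4 and 27.4 CPM in TDP-43 cKO mice (2.20 ± 0.35). The groups did not overlap, and the 2 NELF-B cKO mice, at 9.14 and 25.4 CPM of Tgm2, were in between. The free RNA held 1.04 to 3.203 CPM of Tgm2 in control and 12.0, 6.77 and 9.63 CPM in TDP-43 cKO libraries, below the Sertoli cell values of the same libraries, and the call was lost with the free RNA subtracted (2.28, adjusted p = 0.0901). As given above, the cluster of high UMIs held more of the Sertoli cells in TDP-43 cKO mice. With that cluster alone Tgm2 still passed, and Rdh11 did not (-1.03, adjusted p = 0.0675).

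Rdh11 stood at 55.8, 34.0, 31.6 and 31.7 CPM in Sertoli cells of control mice and at 7.12, 13.5 and 10.7 CPM in those of TDP-43 cKO mice (-1.85 ± 0.39). The free RNA held 134 to 161 CPM of Rdh11 in control and 8.10, 56.9 and 54.6 CPM in TDP-43 cKO libraries. The 8 RS markers summed to 89.2 to 389 CPM in the Sertoli cells of control mice and to 17.5 to 30.1 CPM in those of TDP-43 cKO mice, with at most 1 marker at 0. The part of this germ cell RNA and of the clusters in both differences was not tested. Both calls were lost without any 1 of control replicates 1, 3 and 4 or of the TDP-43 cKO mice, with Tgm2 at 2.06 to 2.32 (adjusted p = 0.06 to 0.11) and Rdh11 at -2.08 to -1.63 (adjusted p = 0.0603 to 0.114).

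**Figure D5:**
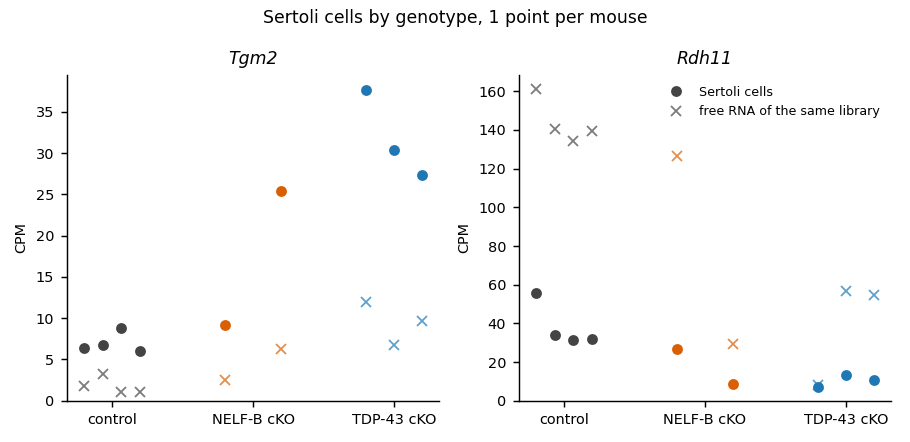
Levels of Tgm2 and Rdh11 in Sertoli cells by genotype, in CPM, with 1 dot per mouse and a cross for the free RNA of its library. The TDP-43 cKO mice are above all controls for Tgm2 (27.4 to 37.7 CPM) and below them for Rdh11 (7.12 to 13.5 CPM).

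In P and D SC of TDP-43 cKO mice, Rec8 rose (2.29 ± 0.43, adjusted p = 0.0065) and Rdh11 (-0.48 ± 0.15, adjusted p = 0.0441) and Dgat1, which can esterify retinol (-0.64 ± 0.17, adjusted p = 0.0266), fell, of 37 tested, where 17.7% of all genes were called. Rec8 rests on 12 and 18 UMIs, at 25.8 and 36.6 CPM against 4.37 to 6.98 CPM in control mice, and was also higher in RS than in P SC of control mice. Against NELF-B cKO mice, Rec8 was higher (3.17 ± 0.51, adjusted p = 0.00517) and Dgat1 lower (-0.68 ± 0.19, adjusted p = 0.035), the 2 calls among 212 tests between the mutants (14% of all genes in these cells). Without TDP-43 cKO replicate 3, Rec8 did not pass against control (1.97, adjusted p = 0.134) or NELF-B cKO mice (2.83, adjusted p = 0.0865). The Rdh11 call was lost without any 1 control or TDP-43 cKO mouse of the fit (-0.65 to -0.38, adjusted p = 0.0653 to 0.26), and both Dgat1 calls without control replicate 3 or 4 or TDP-43 cKO replicate 2 or 3 (-0.78 to -0.60, adjusted p = 0.0609 to 0.136). With no germ cell left out, Rec8 was at -0.47 and Rdh11 at 0.0495 against control, and with the removal in controls too Rec8 was at -0.28 and Dgat1 at 0.0447. Against NELF-B cKO mice, Rec8 was at 0.53 (adjusted p = 0.895) and Dgat1 at -0.19 (adjusted p = 0.857) with no germ cell left out.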

How the data were processed

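Single-cell 3′ libraries of 9 testes (4 control, 2 NELF-B cKO and 3 TDP-43 cKO mice) were deposited by the authors as raw UMI counts per gene and barcode, made with Cell Ranger (6.1.1 and 7.0.0 in the submitters' processing notes) on mm10. The deposited counts were not normalized. Barcodes past the filter (more than 1000 genes, less than 10% of UMIs from mitochondria) were clustered here with scanpy 1.11.5 and leidenalg 0.10.2 (3000 variable genes without the members and pathway genes, 40 components, resolution 0.8). Of 29 clusters, 21 were named from fixed markers, which gave 27590 cells. The limits for naming were set after the clusters were seen, no doublet caller was run, and the clusters of SG, SC, RS and Sertoli cells split by library, with most SG, pL, Z and Sertoli cells of TDP-43 cKO mice in other clusters than most of those of control mice.

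Counts of each mouse and cell type with at least 10 cells were summed and tested with edgeR 4.0.16 (TMM, filterByExpr, quasi-likelihood test, Benjamini-Hochberg over all genes of the fit, threshold 0.05). The comparisons within control mice had the mouse as a block, and the comparisons between genotypes had none, with all 9 mice sharing the estimate of the spread. DESeq2 1.42.0, other filters, other cell choices, other clusters and leaving out each mouse were tried. On simulated data the scripts recovered most of the changes put in. The simulations covered Sertoli cells by genotype and somatic against germ cells, with large changes in well-counted genes. They did not cover SC by genotype, small changes or low counts. Mice are separate animals, and counting error covers UMIs only.

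The 8 genes and the pathway list were chosen with earlier results of these data known. All 8 genes and the pathway genes called between genotypes were named. In control mice the 3 largest called pathway genes per direction were named. For likeness, the 3 most similar genes were named for each member with 10 CPM or more in a cell type. Some genes that these rules would name are not reported here. Promoter sequences are from RefSeq (GRCm38.p6), and positions from GENCODE M21.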

Additional observations from a re-analysis of the deposited data

Results flagged for a closer look

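In 3 of 73 groups of 4 control mice, 1 mouse lay far from the other 3 by Dixon's ratio, and chance gives about 1 in 20 such groups. Crabp2 in SG of control replicate 2 stood at 3.92 CPM, from 48 UMIs, against 1.74 to 1.85 CPM in the others. Aldh1a2 in RS of control replicate 2 stood at 51.3 CPM against 44.8 to 45.7 CPM. Rbp4 in the joint somatic cells of control replicate 4 stood at 11.1 CPM against 5.55 to 5.96 CPM. In addition, the tested difference between the 2 mutants for Aldh1a2 in P and D SC was -0.64 on the log2 scale (edgeR's quasi-likelihood test, adjusted p = 0.021), lower in both TDP-43 cKO mice that entered the fit than in both NELF-B cKO mice. With no germ cells left out it was -0.0433 (adjusted p = 0.977).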

How the results depend on the processing

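Of 685 alternative values for single genes in the control comparisons, 642 kept their direction and side of the threshold and 0 changed direction. Of 728 in the genotype comparisons, 468 did so, 243 lost the call, 4 gained it (Cyp26b1 in endothelial cells of TDP-43 cKO mice) and 13 changed direction. Members called in the control comparisons went from 5 to between 3 and 6 for Sertoli cells against SG when 1 mouse was left out (3 without control replicate 2), and from 4 to 2 for P SC against pL, L and Z SC and for RS against P SC at an adjusted p under 0.01 with a log2 fold change of 1.

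The member calls between genotypes were 3 in NELF-B cKO, 2 in TDP-43 cKO and 1 between the mutants. All became 0 at the stricter threshold and with clusters at resolution 1.5. With the same removal of germ cells in control mice they were 0 in NELF-B cKO and 0 in TDP-43 cKO, and with no germ cells left out 0 in TDP-43 cKO and 0 between the mutants. With pL SC alone in place of the joint sum there were 0 in NELF-B cKO and 1 in TDP-43 cKO, and with Z SC alone 1 and 1, where the TDP-43 cKO call was that of Aldh1a2 in P and D SC. These 2 choices, and Sertoli cells of the cluster of high UMIs alone, were added after seeing the data. DESeq2 gave 8 in TDP-43 cKO, no filter on low counts gave 4 and, between the mutants, 2, and at least 30 cells per mouse gave 1 and 0. Leaving out 1 mouse gave 0 to 4 in NELF-B cKO (0 without control replicate 4), 1 to 10 in TDP-43 cKO (10 without NELF-B cKO replicate 1, 9 without NELF-B cKO replicate 2) and 0 to 2 between the mutants (0 without TDP-43 cKO replicate 3). DESeq2 gave no adjusted p for Crabp2 in pL, L and Z SC of NELF-B cKO mice. The causes were not tested. All member counts under other settings in this section stand without the share of all genes called in the same fits. They are no result about the members.

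With the replicate number as a block, 0, 0 and 0 member calls were left. The labels do not say that a number marks a shared litter or day. In SG, deviations of same-numbered mice correlated at -0.26, -0.21 and 0.05 between control and TDP-43 cKO, at 0.41 and 0.28 between control and NELF-B cKO, and at -0.53 and -0.47 between the mutants. The same-numbered control and NELF-B cKO mice also correlated at 0.54 and 0.11 in Sertoli and 0.13 and 0.22 in Leydig cells, from 2 pairs, and were not treated as paired. Differently numbered mice of the 2 mutants correlated at -0.28 to 0.53 in SG. Deviations in a group of 2 mice mirror each other, as control replicate 1 in SG gave 0.41 and -0.41 with the NELF-B cKO mice. The values therefore cannot decide whether the numbers mark pairs.

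Among named genes, these changed direction. With no germ cells left out, Aldh1a2 was at 0.0175, Rdh11 at 0.0495 and Rec8 at -0.47 in P and D SC of TDP-43 cKO mice. With the removal in control mice too, Rec8 was at -0.28 and Dgat1 at 0.0447 there, and Stra8 at -0.0579 and Gm4969 at -0.28 in pL, L and Z SC. In pL SC alone, Stra8 was at -0.26 and Gm4969 at -0.52. In Z SC alone, Scarb1 was at -0.31, Rdh14 at 0.32 and Rdh11 at 0.0677 in TDP-43 cKO and Stra8 at -0.75 in NELF-B cKO mice. Depth limits Cyp26a1 and Crabp2 most, at 0 to 50 UMIs per mouse and cell type, and 1 NELF-B cKO mouse alone had 10 or more RS.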
